A study of Mus musculus with 9 samples.

Results

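The Toll-like receptor genes Tlr1, Tlr2, Tlr3, Tlr4, Tlr7, Tlr8, Tlr9 and Tlr13, the coreceptor gene Cd14 and the adaptor gene Myd88 were followed in mouse aortas during angiotensin II (Ang II) infusion. They were chosen by gene symbol and matched by Entrez identifier, which gave 10 of the 18830 genes counted. Bulk RNA sequencing covered the suprarenal abdominal aorta in 9 libraries, 3 in each of 3 groups. The Ang II 28D and Ang II 14D groups were ApoE knockout mice given Ang II, a vasoconstrictor peptide, at 1000 ng/kg/min from osmotic pumps, for 28 and 14 days. The sham control group carried the same ApoE knockout, which makes mice prone to atherosclerosis, and the labels do not give the day of its harvest. Neither the age and sex of the mice nor whether each library came from a separate animal is stated, so p-values measure the spread between libraries, which may be technical. An aneurysm was defined by the submitters as a gain in diameter of at least 50%, but the labels do not say which libraries came from aneurysms.

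Toll-like receptors recognise microbial molecules and some molecules released by damaged tissue. TLR1, TLR2 and TLR4 act at the cell surface, where CD14 hands lipid ligands to them, and TLR3, TLR7, TLR8, TLR9 and the murine receptor TLR13 sense nucleic acids in endosomes. All of these receptors except TLR3 signal through the adaptor MYD88 to NF-kB, and in the artery wall they are carried by macrophages and other leukocytes and, for some members, by smooth muscle cells, fibroblasts and endothelium.

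The libraries held between 9609690 and 14923936 expected counts each. Values below are in CPM, the counts scaled to a common library total with TMM factors, and log2 fold changes are edgeR estimates ± SE. All 8 fixed smooth muscle markers were read in every group, although the sample titles call the tissue muscle and the other labels aorta. Their summed level was 2222 to 6743 CPM at 28 days, 3901 to 17851 CPM at 14 days and 10410 to 31911 CPM in sham. Skeletal muscle markers reached 13992 and 4781 CPM in 28D replicates 1 and 2, against 4.47 to 96.1 CPM in the 7 other libraries. The nerve and Schwann cell list summed to 4262 CPM in sham replicate 2, against 129 and 64.9 CPM in sham replicates 1 and 3. It had 1992 CPM in 28D replicate 2, 1789 CPM in 14D replicate 1 and 41.5 to 900 CPM in the other Ang II libraries. Log2 CPM of sham replicate 2 correlated at 0.839 and 0.828 with sham replicates 1 and 3, which correlated at 0.961. Every gene followed here except Tlr3 was lowest in sham replicate 2. The cause was not tested. The macrophage and monocyte list was highest in 14D replicate 2, and the B and plasma cell list in 28D replicate 2 and 14D replicate 3. Apoe itself had 23.0 to 270 CPM at 28 days, 160 to 648 CPM at 14 days and 22.5 to 87.5 CPM in sham. With no wild-type library, the knockout could not be checked.

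The 250 bases before the gene start are shown for 4 of the genes, because they differ in where they peaked or in role. Tlr13 and Tlr8 were highest in 14D replicate 2, Tlr9 was highest in 28D replicate 2, and Myd88 encodes the adaptor of all 3 receptors. The sequences are from RefSeq on GRCm38.p6, written 5′ to 3′ on the strand of the gene, with matches to 2 of the motifs searched, on either strand, in capitals. These are AGGAAG, an ETS factor core, and a GAAA repeat with 2 free bases between its copies, an interferon regulatory factor element. An NF-kB element, GGG and CC with 5 free bases between them, was searched too and has no match in these 4 windows. A TATA box, TATAAA, was searched as well, and its matches in the Tlr8 and Myd88 windows are not in capitals.
Tlr13, chrX:106143025-106143274, plus strand: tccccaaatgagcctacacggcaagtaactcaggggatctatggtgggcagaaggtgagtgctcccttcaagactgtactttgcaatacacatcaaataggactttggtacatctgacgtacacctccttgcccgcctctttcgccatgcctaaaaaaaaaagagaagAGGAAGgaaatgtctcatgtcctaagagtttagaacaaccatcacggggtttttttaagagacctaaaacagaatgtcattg
Tlr8, chrX:167264330-167264579, minus strand: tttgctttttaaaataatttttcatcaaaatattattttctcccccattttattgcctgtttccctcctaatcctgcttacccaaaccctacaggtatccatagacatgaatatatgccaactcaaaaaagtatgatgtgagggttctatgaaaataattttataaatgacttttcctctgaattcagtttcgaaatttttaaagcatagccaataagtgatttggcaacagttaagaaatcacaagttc
Tlr9, chr9:106222348-106222597, plus strand: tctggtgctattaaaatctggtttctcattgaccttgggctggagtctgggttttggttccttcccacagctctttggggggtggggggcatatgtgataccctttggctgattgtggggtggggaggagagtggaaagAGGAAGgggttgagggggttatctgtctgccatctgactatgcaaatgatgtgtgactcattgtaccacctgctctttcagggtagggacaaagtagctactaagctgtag
Myd88, chr9:119340019-119340268, minus strand: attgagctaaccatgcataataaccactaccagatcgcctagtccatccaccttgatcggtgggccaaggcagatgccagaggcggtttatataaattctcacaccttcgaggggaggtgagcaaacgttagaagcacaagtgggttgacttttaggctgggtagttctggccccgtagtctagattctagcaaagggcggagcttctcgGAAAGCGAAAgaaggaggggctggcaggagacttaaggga

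RefSeq windows were found for 7 of the 10 genes, 8 windows in all, since Tlr1 has 2 starts. Tlr4, Tlr7 and Cd14 had no entry. AGGAAG stood in 4 of the 8 windows (those of Tlr2, Tlr9, Tlr13 and 1 of Tlr1), against 29.5% of 32851 mouse windows of the same length. The GAAA repeat stood in 1 of the 8, that of Myd88, against 2.98% of all windows, and the NF-kB element in 2, those of Tlr2 and Tlr3, against 45.8%. The TATA box stood in 2 of the 8, those of Tlr8 and Myd88, against 12.4% of all windows. Matches to different motifs do not overlap in the windows shown. A match is a description of letters and not evidence of binding.

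The design asks how the aorta differs from sham after 14 and after 28 days of Ang II. All 10 genes had log2 fold changes above 0 at both times, as had 40.7% of all genes at 28 days and 45.2% at 14 days. Their median was 1.24 at 28 days and 2.02 at 14 days, whereas the median of all 14741 genes tested was -0.08 and -0.07. The estimates ran from 0.12 for Tlr4 to 2.66 for Tlr9 at 28 days, and from 0.42 for Tlr3 to 3.21 for Tlr13 at 14 days. None of these differences passed edgeR's quasi-likelihood test after Benjamini-Hochberg adjustment over all genes. Whether more cells of a type or more RNA per cell lies behind a higher value in whole tissue cannot be told apart.

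At 28 days, edgeR called 0 of the 10 genes, and 0% of all genes, with a lowest adjusted p of 0.217 among the 10. At an unadjusted p under 0.05, 5 of the 10 were higher (Tlr1, Tlr2, Tlr3, Tlr7 and Tlr9), beside 7.96% of all genes. DESeq2 called 1, Tlr9, with 3.91% of all genes called as higher, and limma-voom called 0. Tlr13 had no DESeq2 adjusted p in any of the 4 comparisons. In 6 of the 10 (Tlr2, Tlr3, Tlr7, Tlr8, Tlr9 and Tlr13) every 28-day library was above every sham library, which was so for 12.2% of all genes.

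At 14 days, edgeR called 0 of the 10, and 0% of all genes, with a lowest adjusted p of 0.117. Every member except Tlr4 was higher at an unadjusted p under 0.05, so 9 of 10, beside 13.1% of all genes. DESeq2 called 7 as higher (Tlr1, Tlr2, Tlr7, Tlr8, Tlr9, Cd14 and Myd88), with 8.65% of all genes called as higher, and gave no adjusted p for Tlr13. limma-voom called 0. In 7 of the 10 every 14-day library was above every sham library, against 12.6% of all genes; the exceptions were Tlr4, Tlr8 and Tlr13. Both comparisons use the same 3 sham libraries and are therefore not independent.

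**Figure D1:**
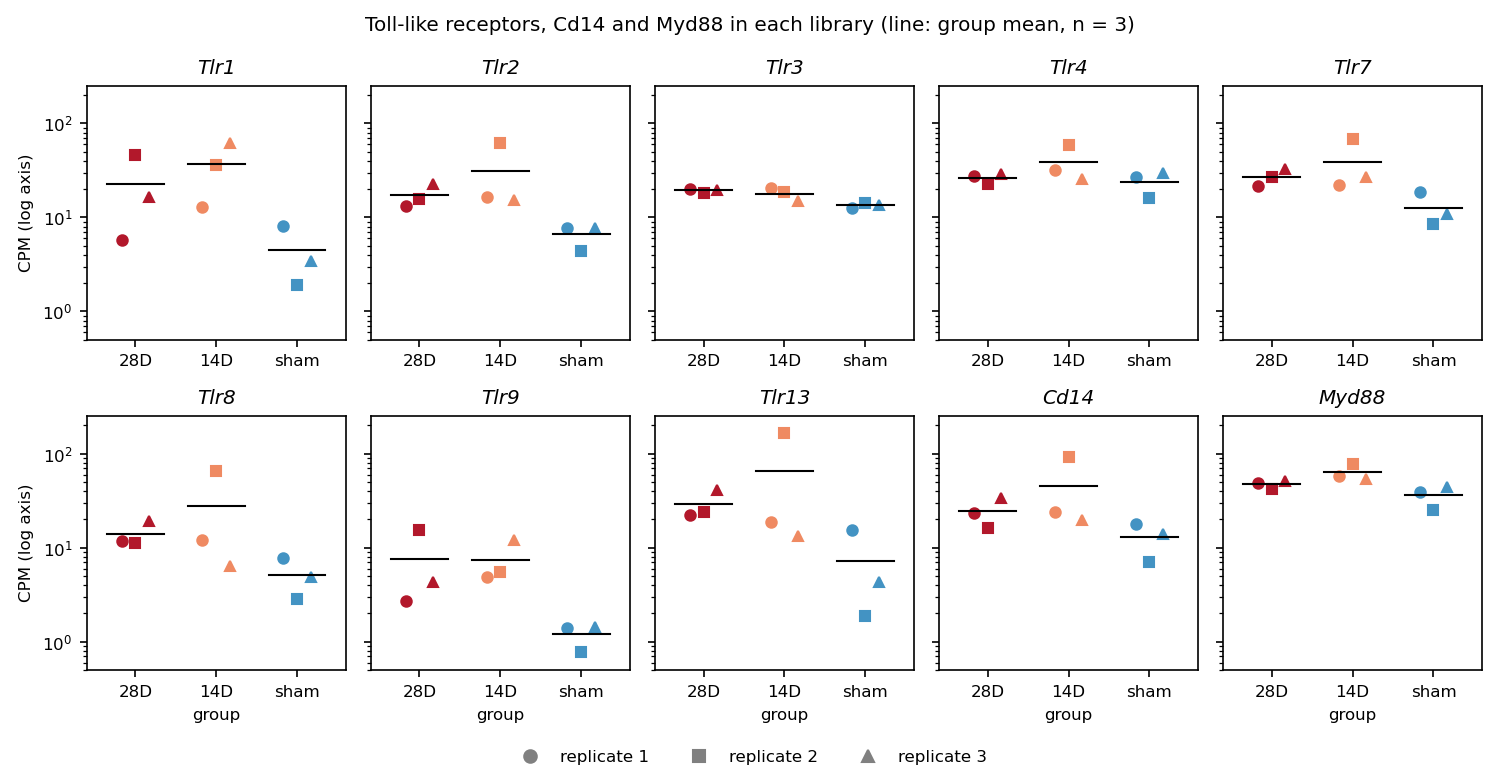
Level of each gene in each library, in CPM on a log axis, with the 28D, 14D and sham groups along the horizontal axis; marker shapes give the replicate number and lines the mean of 3 libraries. Tlr13 spans 1.86 to 165 CPM over the 9 libraries, whereas Tlr3 spans 12.6 to 20.3 CPM.

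Among the surface receptors, Tlr2 showed the clearest separation. Tlr2, whose product pairs with TLR1 or TLR6 to sense lipopeptides (Entrez 24088, ENSMUSG00000027995, chromosome 3, 83836272 to 83841824), had 13.2, 15.7 and 22.6 CPM in 28D replicates 1 to 3, 16.5, 62.0 and 15.3 CPM in 14D replicates 1 to 3 and 7.67, 4.43 and 7.74 CPM in sham replicates 1 to 3. All 6 Ang II libraries were above all 3 sham libraries, and 14D replicate 2 stood well above the rest. The log2 fold change against sham was 1.38 ± 0.57 at 28 days (edgeR adjusted p = 0.335) and 2.24 ± 0.58 at 14 days (edgeR adjusted p = 0.117, DESeq2 adjusted p = 0.00352). Without 14D replicate 2 the 14-day value was 1.28.

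Tlr1 encodes a partner of TLR2 (Entrez 21897, ENSMUSG00000044827, chromosome 5, 64924680 to 64933600). It had 5.69, 46.7 and 16.3 CPM in 28D replicates 1 to 3, 13.0, 36.4 and 61.6 CPM in 14D replicates 1 to 3 and 8.10, 1.93 and 3.47 CPM in sham replicates 1 to 3. Unlike Tlr2, it was highest in 28D replicate 2 and 14D replicate 3, and 28D replicate 1 lay below sham replicate 1. Against sham, Tlr1 had a log2 fold change of 2.36 ± 0.91 at 28 days (edgeR adjusted p = 0.301) and 3.05 ± 0.93 at 14 days (edgeR adjusted p = 0.13, DESeq2 adjusted p = 0.00532). Without 28D replicate 2 the 28-day value was 1.3, and without 14D replicate 3 the 14-day value was 2.46. Tlr1 shares reads with its close paralog Tlr6: counts of Tlr1 were not whole in 8 of 9 libraries, and in all 8 its sum with Tlr6 was whole. The assignment between the pair is therefore uncertain, and the summed counts gave 2.21 at 28 days and 2.90 at 14 days.

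Tlr4, the receptor for bacterial lipopolysaccharide (Entrez 21898, ENSMUSG00000039005, chromosome 4, 66827551 to 66846581), had 27.3, 22.7 and 28.7 CPM in 28D replicates 1 to 3, 31.9, 59.4 and 25.9 CPM in 14D replicates 1 to 3 and 26.9, 16.1 and 29.4 CPM in sham replicates 1 to 3. The groups overlapped at both times. For Tlr4 the log2 fold change was 0.12 ± 0.35 at 28 days (edgeR adjusted p = 0.946) and 0.70 ± 0.35 at 14 days (edgeR adjusted p = 0.266), and the 14-day value was 0.28 without 14D replicate 2. At 28 days the estimate was -0.10 without sham replicate 2, in which Tlr4 was lowest.

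Cd14, whose product transfers lipopolysaccharide to the TLR4 complex (Entrez 12475, ENSMUSG00000051439, chromosome 18, 36725064 to 36726815), had 23.2, 16.1 and 34.0 CPM in 28D replicates 1 to 3, 24.2, 92.5 and 19.7 CPM in 14D replicates 1 to 3 and 18.1, 7.01 and 14.1 CPM in sham replicates 1 to 3. Every 14-day library was above every sham library, by a narrow margin outside replicate 2, and the 28-day libraries overlapped sham. Against sham, Cd14 was at 0.91 ± 0.64 log2 at 28 days (edgeR adjusted p = 0.645) and 1.8 ± 0.65 at 14 days (edgeR adjusted p = 0.16, DESeq2 adjusted p = 0.0392). Without 14D replicate 2 the 14-day value was 0.77.

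Among the endosomal receptors, Tlr13 had the widest range and Tlr3 the narrowest. Tlr13, a sensor of bacterial ribosomal RNA in mice (Entrez 279572, ENSMUSG00000033777, chromosome X, 106143275 to 106160493), had 22.5, 23.9 and 41.1 CPM in 28D replicates 1 to 3, 19.0, 165 and 13.4 CPM in 14D replicates 1 to 3 and 15.5, 1.86 and 4.27 CPM in sham replicates 1 to 3. All 28-day libraries exceeded all sham libraries, while 14D replicate 3 was below sham replicate 1. Against sham, Tlr13 was at 2.03 ± 1.09 log2 at 28 days (edgeR adjusted p = 0.496) and 3.21 ± 1.14 at 14 days (edgeR adjusted p = 0.155), and the 14-day value was 1.21 without 14D replicate 2. Without sham replicate 1, the highest sham library, the 28-day value was 3.25.

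Tlr8 (Entrez 170744, ENSMUSG00000040522, chromosome X, 167241123 to 167264329) and Tlr7 (Entrez 170743, ENSMUSG00000044583, chromosome X, 167303380 to 167330574) are neighbours on the X chromosome, and TLR7 senses single-stranded RNA. Tlr8 had 11.7, 11.3 and 19.3 CPM in 28D replicates 1 to 3, 12.0, 65.4 and 6.45 CPM in 14D replicates 1 to 3 and 7.78, 2.86 and 4.89 CPM in sham replicates 1 to 3. Tlr7 had 21.5, 26.9 and 32.8 CPM in 28D replicates 1 to 3, 22.2, 68.6 and 27.1 CPM in 14D replicates 1 to 3 and 18.5, 8.51 and 10.9 CPM in sham replicates 1 to 3. Both were highest in 14D replicate 2 and lowest in sham replicate 2, and all 6 Ang II libraries were above sham for Tlr7 but not for Tlr8, where 14D replicate 3 was below sham replicate 1. The log2 fold change of Tlr8 was 1.45 ± 0.83 at 28 days and 2.43 ± 0.85 at 14 days (edgeR adjusted p = 0.528 and 0.151), with 0.86 at 14 days without 14D replicate 2. That of Tlr7 was 1.10 ± 0.48 at 28 days and 1.64 ± 0.48 at 14 days (edgeR adjusted p = 0.358 and 0.127), with 0.99 at 14 days without 14D replicate 2. Counts of Tlr7 were not whole in 8 libraries, so part of its reads was shared with other genes that were not identified here.

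Tlr9, the receptor for unmethylated CpG DNA and a gene of B cells and plasmacytoid dendritic cells (Entrez 81897, ENSMUSG00000045322, chromosome 9, 106222598 to 106226876), had 2.74, 15.6 and 4.33 CPM in 28D replicates 1 to 3, 4.83, 5.47 and 12.1 CPM in 14D replicates 1 to 3 and 1.39, 0.787 and 1.42 CPM in sham replicates 1 to 3. All 6 Ang II libraries were above all 3 sham libraries, with 28D replicate 2 and 14D replicate 3 highest. Sham values rest on 11 to 16 counts per library. Against sham, Tlr9 was at 2.66 ± 0.73 log2 at 28 days (edgeR adjusted p = 0.217, DESeq2 adjusted p = 0.0123) and 2.64 ± 0.73 at 14 days (edgeR adjusted p = 0.119, DESeq2 adjusted p = 0.00789). Without 28D replicate 2 the 28-day value was 1.56, and without 14D replicate 3 the 14-day value was 2.10.

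Tlr3, the sensor of double-stranded RNA that signals through TRIF and not MYD88 (Entrez 142980, ENSMUSG00000031639, chromosome 8, 45395665 to 45411075), had 20.2, 18.2 and 19.7 CPM in 28D replicates 1 to 3, 20.3, 18.5 and 14.9 CPM in 14D replicates 1 to 3 and 12.6, 14.2 and 13.4 CPM in sham replicates 1 to 3. The differences were small, yet all 6 Ang II libraries were above all 3 sham libraries, and 14D replicate 2 did not stand out. The log2 fold change was 0.53 ± 0.17 at 28 days (edgeR adjusted p = 0.243) and 0.42 ± 0.17 at 14 days (edgeR adjusted p = 0.196).

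Myd88, the adaptor shared by the receptors other than TLR3 (Entrez 17874, ENSMUSG00000032508, chromosome 9, 119335934 to 119340018), had 48.5, 42.0 and 50.9 CPM in 28D replicates 1 to 3, 57.7, 78.7 and 54.5 CPM in 14D replicates 1 to 3 and 39.3, 25.2 and 44.8 CPM in sham replicates 1 to 3. The 14-day libraries were all above sham, and the 28-day libraries overlapped sham. The log2 fold change was 0.37 ± 0.24 at 28 days (edgeR adjusted p = 0.596) and 0.81 ± 0.24 at 14 days (edgeR adjusted p = 0.129, DESeq2 adjusted p = 0.0248).

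**Figure D2:**
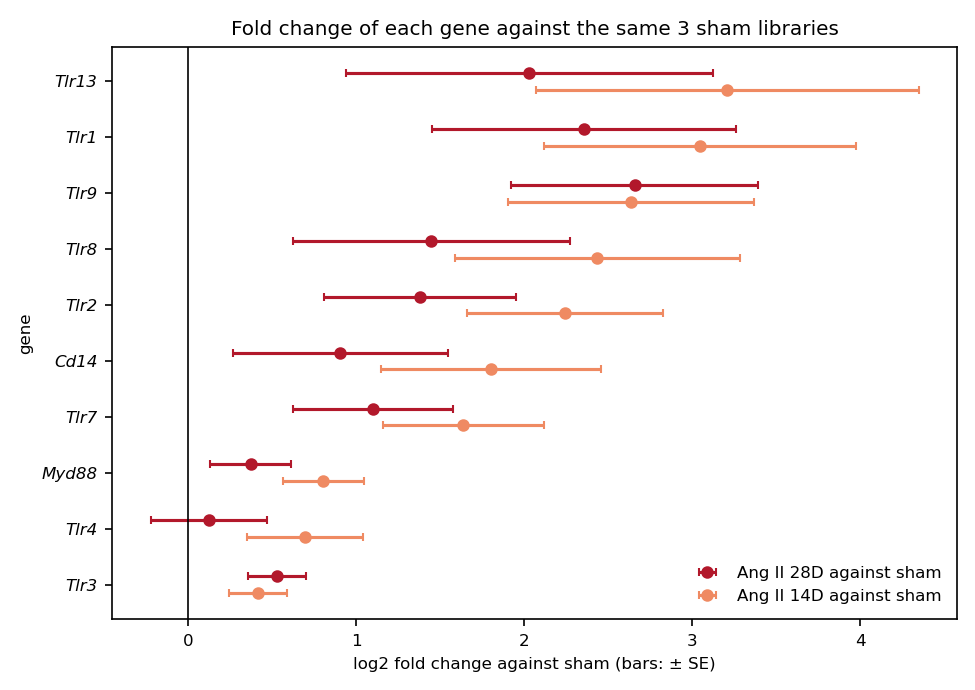
Log2 fold change of each gene against the same 3 sham libraries, with the 28-day estimate above the 14-day estimate in each row and bars of ± SE from edgeR. All 20 estimates are above 0, from 0.12 for Tlr4 at 28 days to 3.21 for Tlr13 at 14 days.

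The genes can be compared with each other only per length of transcript, here CPM per kb of merged exon. Myd88 was highest at 28 days and in sham, with 18.3 ± 1.8 CPM per kb at 28 days, 24.7 ± 5.09 at 14 days and 14.1 ± 3.92 in sham (SD, n = 3 each). Cd14 had 14.1 ± 5.2 CPM per kb at 28 days, 26.3 ± 23.5 at 14 days and 7.54 ± 3.24 in sham (SD, n = 3 each), so that the 14-day levels of Cd14 and Myd88 lay within their spread. Tlr4 led the receptors in sham, with 4.72 ± 0.56 CPM per kb at 28 days, 7.03 ± 3.21 at 14 days and 4.34 ± 1.27 in sham (SD, n = 3 each). In sham the order below Tlr4 was Tlr7 at 3.10 ± 1.29 CPM per kb, Tlr3 at 2.58 ± 0.16, Tlr2 at 2.2 ± 0.63, Tlr13 at 1.67 ± 1.68, Tlr8 at 1.44 ± 0.69 and Tlr1 at 1.34 ± 0.96 (SD, n = 3), neighbours that lie within their spread. Tlr9 was the lowest in sham, at 0.345 ± 0.103 CPM per kb (SD, n = 3). At 28 days Tlr1, Tlr13, Tlr7 and Tlr2 had means above that of Tlr4, at 6.84 ± 6.35, 6.78 ± 2.4, 6.63 ± 1.39 and 5.70 ± 1.61 CPM per kb (SD, n = 3 each), and Tlr8, Tlr3 and Tlr9 had means below it, at 3.93, 3.72 and 2.17. The mean of Tlr1 rests on 28D replicate 2: per kb it had 1.70, 13.9 and 4.88 CPM in 28D replicates 1 to 3, against 4.91, 4.09 and 5.17 CPM for Tlr4. At 14 days the order of the receptors ran from Tlr13 at 15.3 CPM per kb through Tlr1, Tlr2, Tlr7 and Tlr8 at 11.1, 10.4, 9.63 and 7.79 to Tlr4, Tlr3 and Tlr9 at 7.03, 3.44 and 2.15, and the spread over libraries exceeded most of these steps.

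Between the 2 infusion times, 2 of the 10 genes (Tlr3 and Tlr9) had log2 fold changes above 0, beside 44.8% of all genes, and 8 were below 0. None of the differences passed the test. edgeR called 0 of the 10 (0% of all genes), 0 were under an unadjusted p of 0.05 (6.13% of all genes), and DESeq2 called 0 (0.805% of all genes). The median log2 fold change was -0.63, against -0.05 for all genes. Myd88 was the single gene in which the groups did not overlap, lower in every 28-day library (log2 fold change -0.43 ± 0.24, edgeR adjusted p = 0.774), as were 5.71% of all genes. Without 14D replicate 2 the estimates of Tlr2, Tlr7, Tlr8, Tlr13 and Cd14 were above 0. For Tlr9 the estimate was 0.022 ± 0.68 and for Tlr3 0.11 ± 0.17.

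With both infusion times averaged and set against sham, all 10 estimates were above 0, beside 42.7% of all genes, with a median log2 fold change of 1.59 against -0.08 for all genes. edgeR called 0 of the 10 and 0% of all genes, with a lowest adjusted p of 0.125 for Tlr9, whose log2 fold change was 2.65 ± 0.69. An unadjusted p under 0.05 was reached by 9 of 10, all but Tlr4, beside 11.4% of all genes. DESeq2 called 6 as higher, namely Tlr1, Tlr2, Tlr3, Tlr7, Tlr8 and Tlr9, with 7.92% of all genes called as higher, and limma-voom called 0. In 4 of the 10 (Tlr2, Tlr3, Tlr7 and Tlr9) all 6 Ang II libraries were above all 3 sham libraries, as in 8.57% of all genes.

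The genes differed in the libraries where they peaked. Tlr13, Tlr8, Tlr2, Cd14 and Tlr7, and less so Tlr4 and Myd88, peaked in 14D replicate 2. That library also had the highest macrophage and monocyte list level, a mean over 19 genes of 8.35 log2 CPM. The fibroblast list peaked there too, with its highest mean and sum of the 9 libraries, at 10.11 log2 CPM and 22050 CPM. The sums of the neutrophil and dendritic cell lists were also highest there, at 84.1 and 379 CPM. Their means were instead highest in 28D replicate 2, at 1.56 and 4.23 log2 CPM, against 0.31 and 3.34 in 14D replicate 2. The macrophage list was at 6.13, 6.52 and 7.01 log2 CPM in 28D replicates 1 to 3, 6.49, 8.35 and 6.29 in 14D replicates 1 to 3 and 5.5, 4.19 and 5.06 in sham replicates 1 to 3. None of the 19 markers was at 0 in a whole group. Their summed level was 3337 to 5796 CPM at 28 days, 3397 to 21090 CPM at 14 days and 598 to 2435 CPM in sham. Every library of both Ang II groups was thus above every sham library in this list too, and its part in the results was not tested by the group comparisons.

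**Figure D3:**
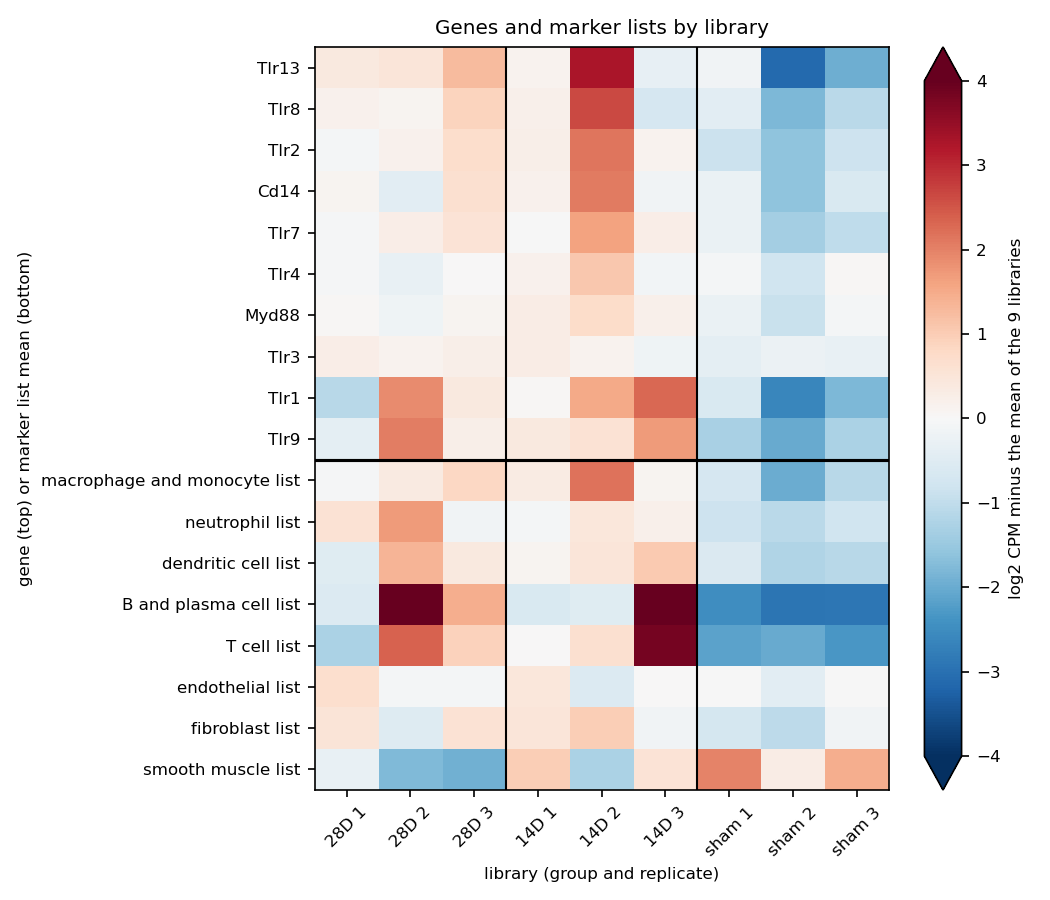
Log2 CPM of each gene (top) and mean log2 CPM of 8 marker lists (bottom) in each library, minus the mean of the 9 libraries, with 28D, 14D and sham from left to right. The 5 upper genes are darkest in 14D replicate 2 with the macrophage list. Tlr1 and Tlr9 are high in 28D replicate 2 and 14D replicate 3 with the B cell, T cell and dendritic cell lists.

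Relative to the macrophage list, Tlr2 was nearly constant. Its log2 CPM minus the list level was -2.39, -2.53 and -2.50 in 28D replicates 1 to 3, -2.43, -2.39 and -2.34 in 14D replicates 1 to 3 and -2.53, -1.99 and -2.08 in sham replicates 1 to 3. This difference spanned 0.54 over the 9 libraries, whereas Tlr2 itself spanned 3.76 on the same scale. For Tlr8 and Cd14 the difference spanned 1.25 and 1.26, against own ranges of 4.44 and 3.69.

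Tlr4, Myd88 and Cd14 stood lower relative to the macrophage list in every Ang II library than in every sham library. The difference for Tlr4 averaged -1.84 ± 0.43 at 28 days, -1.84 ± 0.53 at 14 days and -0.36 ± 0.33 in sham (SD, n = 3 each, log2). For Myd88 it averaged -0.99 ± 0.42 at 28 days, -1.06 ± 0.85 at 14 days and 0.23 ± 0.38 in sham (SD, n = 3 each, log2). For Tlr3 it averaged -2.27 ± 0.46 at 28 days, -2.88 ± 1.09 at 14 days and -1.16 ± 0.75 in sham (SD, n = 3 each, log2). For Cd14 it averaged -2.0 ± 0.46 at 28 days, -1.89 ± 0.08 at 14 days and -1.3 ± 0.06 in sham (SD, n = 3 each, log2). These are levels beside a list that itself was higher in every Ang II library, so a gene that rose less than the list stands lower beside it. The share of all genes that did so was not counted, and no test was made on these levels. With the list level as a covariate in edgeR, the 14-day estimates were 0.17 for Myd88, 0.015 for Tlr2, -0.051 for Tlr7, -0.45 for Tlr4, -0.63 for Cd14, -0.95 for Tlr8 and -1.03 for Tlr13, none of them past the adjusted threshold. Under the same covariate the 14-day estimates of Tlr1, Tlr9 and Tlr3 were 2.47, 2.86 and 0.41, also not past it. List levels of the Ang II and sham libraries did not overlap, so this fit cannot separate list level from group.

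Tlr1 and Tlr9 were highest in the 2 libraries richest in lymphocyte markers. The B and plasma cell list was at 2.27, 7.11 and 4.27 log2 CPM in 28D replicates 1 to 3, 2.21, 2.33 and 7.01 in 14D replicates 1 to 3 and 0.34, -0.12 and -0.09 in sham replicates 1 to 3. Its summed level was 52.9 to 1388 CPM at 28 days, 92.6 to 1401 CPM at 14 days and 8.72 to 17.05 CPM in sham, with none of its 8 markers at 0 in a whole group. The T cell list was highest in the same 2 libraries as the B and plasma cell list, at 5.12 log2 CPM in 28D replicate 2 and 6.59 in 14D replicate 3. The mean of the dendritic cell list was also highest in these 2, at 4.23 and 3.92 log2 CPM. The part of these lists in the peaks was not tested. Neither gene kept a constant difference to the B and plasma cell list. The difference spanned 4.43 log2 for Tlr1 and 4.15 for Tlr9 over the 9 libraries, against own ranges of 4.89 and 4.06, and spanned 3.25 and 3.31 relative to the macrophage list. Tlr1 also had 36.4 CPM in 14D replicate 2, where the B and plasma cell list was only 2.33 log2 CPM. Without the 2 libraries richest in B cell markers, an analysis added after the data were seen, the log2 fold changes against sham were 1.3 for Tlr1 and 1.56 for Tlr9 at 28 days, and 2.46 for Tlr1 and 2.10 for Tlr9 at 14 days. These match the values given above without 28D replicate 2 or 14D replicate 3, because each group has its own coefficient. Both genes were highest in these libraries, so lower estimates were fixed in advance and say nothing about B cells.

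**Figure D4:**
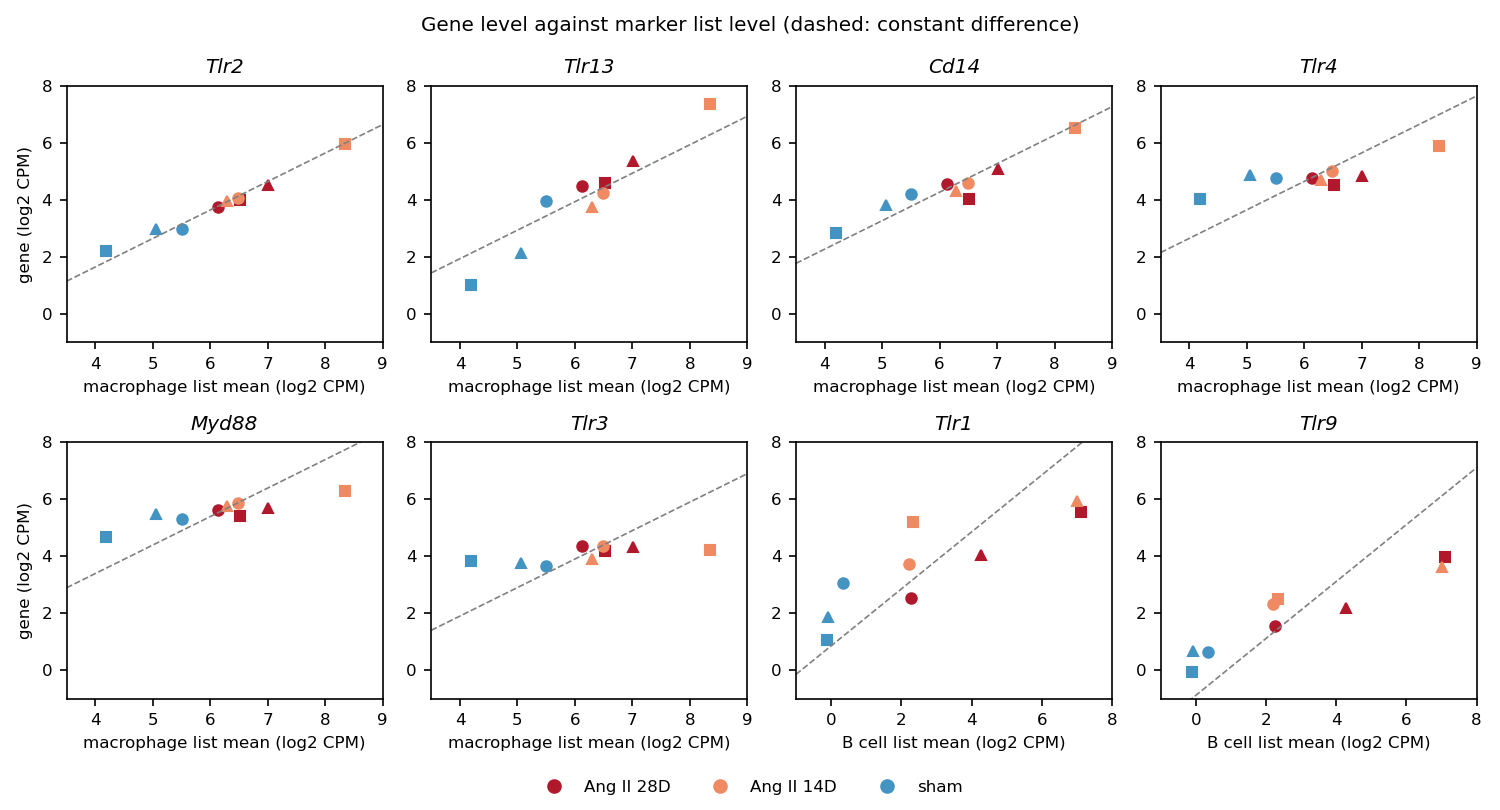
Log2 CPM of 8 genes plotted against the mean log2 CPM of the macrophage list (6 panels) or the B cell list (Tlr1 and Tlr9); each point is 1 library, coloured by group and shaped by replicate, and the dashed line is a constant difference. Tlr2 stays close to the line over a range of 3.76, Tlr4, Myd88 and Tlr3 are flatter than the line, and Tlr1 and Tlr9 are highest where the B cell list exceeds 7 log2 CPM.

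Neutrophil markers were low. The list summed to 22.9 to 48.8 CPM at 28 days, 20.3 to 84.1 CPM at 14 days and 4.72 to 10.4 CPM in sham, and 4 of its 8 genes passed the filter on low counts. In all 4 of these, S100a8, S100a9, Csf3r and Cxcr2, every Ang II library was above every sham library, as in 8.57% of all genes. The filter can pass a gene through its Ang II libraries alone, so this count does not describe the whole list. For S100a8 the margin was 0.841 CPM in 14D replicate 1 against 0.801 CPM in sham replicate 3. Retnlg, which did not pass, overlapped sham, with 0.144 CPM in 14D replicate 2 and 0.178 CPM in sham replicate 3. Ly6g, a defining marker, was at 0 in every 14-day and sham library, and Mpo in every sham library. Endothelial markers summed to 1067 to 1818 CPM at 28 days, 772 to 1824 CPM at 14 days and 850 to 1153 CPM in sham, and fibroblast markers to 5692 to 11967 CPM at 28 days, 6716 to 22050 CPM at 14 days and 3572 to 6632 CPM in sham. The part of these lists in the results was not tested.

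The nearest profiles among 12243 genes with a mean of at least 5 CPM were found by the mean absolute difference of centred log2 CPM over the 9 libraries, a description with no test. Tlr2 was nearest to Fcgr2b (0.092) and Ctsc (0.115), an Fc receptor gene and a lysosomal protease gene. Tlr13 was nearest to C3ar1 (0.117) and Ms4a7 (0.142), Tlr8 to Fcgr3 (0.162) and C1qc (0.194), Tlr7 to Man2b1 (0.172) and Rap2b (0.174), and Cd14 to Rab7b (0.154) and Hexa (0.155). Ms4a7 and C1qc belong to the macrophage list. Tlr1 was nearest to Plcb2 (0.219) and Evi2b (0.225), and Tlr9 to Apobec3 (0.180) and Lrmp (0.243). Tlr4 was close to B4galt1 (0.106), and Myd88 was nearest to the kinase gene Ripk1 (0.097) and to Gm2a (0.109). Tlr3 was nearest to Slc16a9 (0.099) and Arhgap42 (0.109). Within the 10 genes, Tlr4 and Myd88 were the closest pair (0.169), followed by Tlr2 and Cd14 (0.226), while Tlr1 and Tlr3 were the farthest apart (1.27).

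Other genes of the pathway were read from 7 lists of 87 genes in all, and edgeR called 0 of them in every comparison. Of the other receptors, Tlr5, Tlr6, Tlr11 and Tlr12, all low, had estimates above 0 at both times. Tlr5, the flagellin receptor, had 4.52 ± 1.02 CPM at 28 days, 2.58 ± 0.50 CPM at 14 days and 2.42 ± 0.81 CPM in sham (SD, n = 3 each), and Tlr6 had 3.95 ± 0.70, 6.22 ± 3.82 and 1.32 ± 0.51 CPM in the same groups. Tlr12 was highest in 28D replicate 2 and 14D replicate 3, at 7.02 and 9.71 CPM, against 0.358 to 1.68 CPM in the 7 other libraries.

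Coreceptor and trafficking genes had a median log2 fold change of 0.86 at 28 days and 1.72 at 14 days over 12 genes. DESeq2 called 3 as higher at 28 days and 7 at 14 days, beside 3.91% and 8.65% of all genes. Estimates were above 0 in 12 of the 12 at 28 days and in 11 at 14 days, beside 40.7% and 45.2% of all genes. The exception was Cd36, which was lower in every 14-day library than in every sham library. Its log2 fold change was 0.29 ± 0.31 at 28 days and -0.54 ± 0.31 at 14 days. Unc93b1, whose product escorts the endosomal receptors from the endoplasmic reticulum, had 177 ± 55.3 CPM at 28 days, 284 ± 200 CPM at 14 days and 57.5 ± 15.5 CPM in sham (SD, n = 3 each), with log2 fold changes of 1.62 ± 0.50 and 2.30 ± 0.52 at 28 and 14 days. Cd180 and Ly86, which encode a TLR4-like receptor complex of B cells and macrophages, had estimates of 2.6 ± 0.78 and 2.14 ± 0.63 at 28 days and 3.25 ± 0.80 and 2.84 ± 0.64 at 14 days. Ly96, which encodes the MD-2 subunit of the lipopolysaccharide receptor, was at 0.77 ± 0.47 at 28 days and 1.39 ± 0.47 at 14 days, and Lbp, the lipopolysaccharide-binding protein, at 0.91 ± 0.37 and 1.34 ± 0.37.

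The adaptors and proximal kinases were mostly close to sham, with a median log2 fold change of 0.12 at 28 days and 0.17 at 14 days over 19 genes. DESeq2 called 3 of the 19 as higher at 28 days and 5 at 14 days, beside 3.91% and 8.65% of all genes. The adaptor genes Tirap and Ticam1 were at 0.05 ± 0.31 and 0.12 ± 0.21 at 28 days and 0.15 ± 0.31 and 0.27 ± 0.21 at 14 days, and the kinase gene Irak1 was at -0.09 ± 0.18 at both. Pik3ap1 and Btk, signalling genes of B cells and myeloid cells, were at 2.54 ± 0.69 and 2.44 ± 0.76 at 28 days and 3.23 ± 0.71 and 3.06 ± 0.78 at 14 days.

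Interferon regulatory factors carry the signal of the endosomal receptors to interferon genes. DESeq2 called 4 of the 5 as higher at each time, all but Irf3, beside 3.91% of all genes at 28 days and 8.65% at 14 days, and the median was 1.73 at 28 days and 2.47 at 14 days. Irf8, a factor of myeloid and B cells, had 87.0 ± 66.3 CPM at 28 days, 126 ± 65.3 CPM at 14 days and 13.4 ± 5.56 CPM in sham (SD, n = 3 each), a log2 fold change of 2.71 ± 0.68 at 28 days and 3.24 ± 0.70 at 14 days. Irf7 was at 1.73 ± 0.45 and 2.47 ± 0.46, and Irf5 at 2.09 ± 0.56 and 2.84 ± 0.57, at 28 and 14 days. Irf3 was at -0.062 ± 0.23 at 28 days and 0.19 ± 0.23 at 14 days.

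Negative regulators had a median of 0.57 at 28 days and 0.78 at 14 days over 16 genes. Of these, 2 at 28 days and 5 at 14 days were called as higher by DESeq2, beside 3.91% and 8.65% of all genes. Trim30a, an interferon-induced inhibitor of the pathway, had the lowest adjusted p of all pathway genes in each comparison with sham. It had 35.5, 53.7 and 44.5 CPM in 28D replicates 1 to 3, 42.9, 49.7 and 62.5 CPM in 14D replicates 1 to 3 and 14.2, 12.6 and 16.2 CPM in sham replicates 1 to 3. The lowest Ang II library thus exceeded the highest sham library, and 14D replicate 2 did not stand out. Its log2 fold change was 1.64 ± 0.22 at 28 days (edgeR adjusted p = 0.203) and 1.85 ± 0.22 at 14 days (edgeR adjusted p = 0.112), although reads of close paralogs may be shared with it. Tnfaip3, which encodes the NF-kB inhibitor A20, was at 1.39 ± 0.44 at 28 days and 1.51 ± 0.44 at 14 days.

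Genes whose products are described as endogenous ligands of TLR2 or TLR4 went in both directions, with a median of -0.23 at 28 days and 0.62 at 14 days over the 10 of 11 tested. Hspa1a, a heat shock protein gene, had 18.5 ± 7.88 CPM at 28 days, 22.5 ± 10.3 CPM at 14 days and 64.0 ± 17.8 CPM in sham (SD, n = 3 each), with log2 fold changes of -1.79 ± 0.44 and -1.51 ± 0.44. Fn1 and Tnc, matrix genes, were lower in every 28-day library than in every 14-day library. Fn1 had 1263 ± 590 CPM at 28 days, 3596 ± 159 CPM at 14 days and 1508 ± 143 CPM in sham (SD, n = 3 each), and its log2 fold change of 28 against 14 days was -1.51 ± 0.34 (edgeR adjusted p = 0.77). That of Tnc was -1.26 ± 0.32.

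Response genes of the pathway had a median of 1.44 at 28 days and 2.57 at 14 days over the 18 of 20 tested. Of these, 4 at 28 days and 11 at 14 days were called as higher by DESeq2, beside 3.91% and 8.65% of all genes. Ccl5 and Tnf were at 2.87 ± 0.77 and 2.33 ± 0.73 at 28 days and 3.54 ± 0.79 and 3.09 ± 0.75 at 14 days. Ptgs2 had 4.77 ± 1.34 CPM at 28 days, 12.1 ± 4.15 CPM at 14 days and 5.01 ± 2.47 CPM in sham (SD, n = 3 each), so that it was near sham at 28 days, and its log2 fold change of 28 against 14 days was -1.34 ± 0.45. Cxcl2 was at -2.64 ± 0.93 in that comparison, from levels of 0.371 ± 0.208 CPM at 28 days and 2.4 ± 2.55 CPM at 14 days (SD, n = 3 each).

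**Figure D5:**
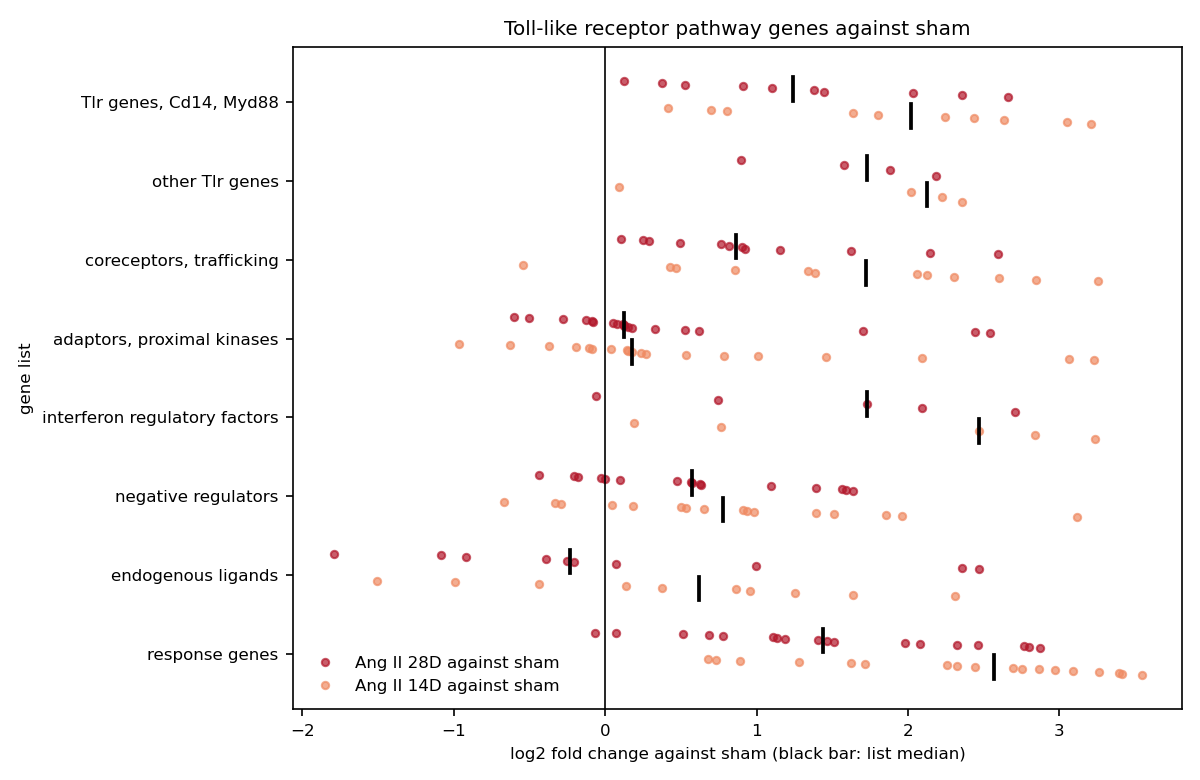
Log2 fold change against sham of every tested gene of the 10-gene set and of 7 pathway lists, with 28-day points above 14-day points in each row and black bars at list medians. The adaptors and proximal kinases centre near 0, at 0.12 and 0.17, and the interferon regulatory factors at 1.73 and 2.47.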

How the data were processed

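mRNA libraries of aorta RNA were sequenced, per the labels' protocols, in 9 libraries of 3 groups. The authors deposited RSEM expected counts per gene as estimated counts per library; HISAT2 2.2.1, Bowtie2 2.4.5 and RSEM 1.3.1 with build GRCm38.p6 are named in the submitters' processing notes, without their roles. Expected counts split reads that match several genes, and 9.77% to 11.0% of genes per library were not whole. The strandedness is not given in the sources used here. Counts were rounded, filtered by filterByExpr (14741 genes) and scaled by TMM in edgeR 4.0.16 (R 4.3.3). The quasi-likelihood fit used the 9 libraries together, with a coefficient for each group, and p-values were adjusted by Benjamini-Hochberg over all genes tested, with a threshold of 0.05. The SE is the log2 fold change over the square root of F, and the common dispersion of 0.263 is a biological coefficient of variation of 51.3%. An exact permutation of 3 against 3 libraries cannot give a two-sided p under 0.1. DESeq2 1.42.0, limma 3.58.1, other scalings and filters, and left-out libraries were alternatives. The per-length levels planned from FPKM were taken from CPM per kb, because no FPKM column was used here. Log2 CPM have a prior count of 2. The script was checked on simulated counts.

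The genes and lists were chosen with earlier results of these data known, and no result rests on them as independent evidence. Of the pathway lists, the genes with the 4 smallest p of each comparison were named by rule (Trim30a, Irf7, Irf5, Irf8, Hspa1a, Fn1, Tnc, Ptgs2 and Cxcl2); the others named were chosen after their values were seen. Gene positions are those of RefSeq on GRCm38.p6, merged exon lengths are from GENCODE, and 18775 of 18830 identifiers were matched to a symbol. Some marker and nearest-profile genes that the naming rule covers are not reported here.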

Additional observations from a re-analysis of the deposited data

How the results depend on the processing

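Of 790 values of the 10 genes under alternatives, 740 kept their direction and side of the threshold, 36 changed direction and 14, all by DESeq2, passed the threshold. In all 4 comparisons 0 of the 10 genes were called under every setting other than DESeq2, among them RLE factors, both filters, limma-voom, the compared groups alone, each library left out, and the 3 libraries richest in nerve markers left out. DESeq2 called 7 at 14 days, 1 at 28 days and 6 with both times pooled against sham, and the cause of the gap was not tested. A replicate block called 0 of the 10 in all 4 comparisons. Same-numbered libraries correlated from -0.553 to 0.646 and were best matched in 4 of 18 cases. This cannot decide whether equal numbers mark pairs, because the libraries also differ in their cell type markers. Fits to FPKM were not run. With 3 libraries a group and a coefficient of variation of 51.3%, the spread between libraries limits precision.

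With the macrophage list as a covariate the direction turned at 14 days for Tlr4 (-0.45), Tlr7 (-0.051), Tlr8 (-0.95), Tlr13 (-1.03) and Cd14 (-0.63), and at 28 days for Tlr2 (-0.12), Tlr4 (-0.68), Tlr7 (-0.073), Tlr8 (-0.64), Tlr13 (-0.45), Cd14 (-0.68) and Myd88 (-0.097). With both times pooled it turned for Tlr2 (-0.053), Tlr4 (-0.57), Tlr7 (-0.062), Tlr8 (-0.80), Tlr13 (-0.74) and Cd14 (-0.65), and for 28 against 14 days for Tlr8 (0.30), Tlr9 (-0.014) and Tlr13 (0.58). Tlr4 at 28 days was -0.10 without sham replicate 2 (0.34 at most with 1 library left out) and -0.045 without the nerve-rich libraries. For 28 against 14 days without 14D replicate 2, Tlr2 was 0.12, Tlr7 0.14, Tlr8 0.62, Tlr13 0.85, Cd14 0.16 and Tlr9 -0.15, and without 14D replicate 3 Tlr3 was -0.0039. The other ends of the range with 1 library left out were -1.19 for Tlr2, -0.82 for Tlr7, -1.46 for Tlr8, -1.66 for Tlr13, -1.26 for Cd14, 0.21 for Tlr3 and 0.55 for Tlr9. Tlr9, at 0.022 in that comparison, was -0.15 by limma-voom, -0.10 with the replicate block, -0.21 without 14D replicate 1, -1.08 without 28D replicate 2, -1.37 without the nerve-rich libraries and -0.54 without the 2 libraries richest in B cell markers. The macrophage list was higher in every Ang II library than in every sham library, so the covariate fit cannot separate list level from group. The cause of these turns was not tested.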

Other observations

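The ratio of Tlr2 to Tlr4 reads, which needs no scaling between libraries, separated the groups. It was 0.486, 0.691 and 0.788 in 28D replicates 1 to 3, 0.519, 1.04 and 0.591 in 14D replicates 1 to 3 and 0.286, 0.276 and 0.264 in sham replicates 1 to 3. All 6 Ang II libraries were above all 3 sham libraries, and the sham libraries lay close together. The ratio of Cd14 to Tlr4 was 0.851, 0.710 and 1.19 in 28D replicates 1 to 3, 0.760, 1.56 and 0.761 in 14D replicates 1 to 3 and 0.675, 0.436 and 0.479 in sham replicates 1 to 3, also without overlap. The ratio of Tlr1 to Tlr2 was instead set apart by 28D replicate 2 and 14D replicate 3, at 2.97 and 4.03, and ran from 0.427 to 1.05 in the 7 other libraries. The ratios of Tlr9 to Tlr13, Tlr8 to Tlr7 and Tlr3 to Myd88 were also taken, and in each the Ang II libraries overlapped sham. All these ratios were chosen after the values were seen, are not corrected for transcript length and were not tested.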
